A study of Mus musculus with 2 samples.

Results

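The 10 genes described here are the myogenic regulatory factors Myod1, Myf5, Myog and Myf6, the paired box factors Pax7 and Pax3 of muscle progenitors, and 4 genes of the myoblast surface and of fusion, Mymk, Mymx, Cdh15 and Megf10. They were chosen by name, and all 10 were found among the 43346 gene rows of each gene table, with 17 transcript rows. Total RNA came from skeletal muscle of B6NCrl mice on postnatal day 0, in 1 group of 2 samples, replicate 1 from pup 1 and replicate 2 from pup 2, with the same pregnancy number. The labels name no treatment and no particular muscle, do not record the sex, and give both samples the same donor entry. They were taken as 2 animals from the pup numbers alone, and the SDs given here measure only the spread between these samples, which may be technical. The libraries held 40455042 and 37151129 expected counts, which are reads per gene after a model has divided reads that fit several features.

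Skeletal muscle forms when mononucleated progenitors commit to the muscle lineage, leave the cell cycle and fuse into fibres with many nuclei. Pax3 and Pax7 act upstream in the progenitors, Myf5 and Myod1 commit them to the lineage, and Myog and Myf6 act during differentiation and in the fibre. The 4 regulatory factors are basic helix-loop-helix proteins that bind E-boxes in DNA as partners of E proteins, and Id proteins take those partners away. Satellite cells, the stem cells of the muscle fibre, carry Pax7. Around birth, fibres are still gaining nuclei by fusion.

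The promoter windows of Myog and Myf5 are shown because no other available window held sequence before the annotated gene. Myod1 and Myf6 had no window, so motifs were not set against level. The printed windows are RefSeq sequences of GRCm38.p6 and end just before the annotated gene. They cover chr1:134289754-134289988 on the plus strand and chr10:107486135-107486384 on the minus strand. Capitals mark an E-box (CANNTG), the MEF3 motif (TCAGGTT), or the core of the MEF2 motif.
Myog: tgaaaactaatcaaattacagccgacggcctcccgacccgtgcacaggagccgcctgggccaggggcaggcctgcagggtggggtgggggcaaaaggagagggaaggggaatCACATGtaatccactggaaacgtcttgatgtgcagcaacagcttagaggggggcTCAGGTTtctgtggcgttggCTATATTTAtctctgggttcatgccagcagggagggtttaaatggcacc
Myf5: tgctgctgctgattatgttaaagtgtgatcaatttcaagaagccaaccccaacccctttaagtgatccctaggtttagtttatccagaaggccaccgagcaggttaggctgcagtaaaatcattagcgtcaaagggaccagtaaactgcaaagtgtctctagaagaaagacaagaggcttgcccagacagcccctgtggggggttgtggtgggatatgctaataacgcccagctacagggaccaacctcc

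The Myog window held all 3 motifs and the Myf5 window none. Counted from the RefSeq start of Myog, the E-box spanned positions -138 to -133, the MEF3 motif -84 to -78 and the MEF2 core -64 to -56. A further E-box at -12 to -7 lay inside the annotated Myog transcript and is not in the printed window. Motifs were searched on both strands, where an E-box reads the same way, and none of the marked motifs overlapped another. The MEF2 core was searched as C or T, then TA, then 4 letters each A or T, then TA. In the 250 bases before the start, 66.2% of 32851 RefSeq promoter windows held an E-box, 3.49% the MEF3 motif and 7.07% the MEF2 core. The motifs were chosen after the Myog window was seen, and a match of letters is not evidence of binding. RefSeq windows were matched for 4 of the 10 genes; those of Pax7 and Cdh15 lie within the annotated gene and are not shown.

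The newborn muscle contained RNA of all 4 regulatory factors, and the late factors exceeded the early ones. Levels are in TPM, a transcript abundance corrected for length and depth, which allows genes to be set side by side. Myogenin, Myog (ENSMUSG00000026459, chromosome 1, 134289989 to 134292548 of mm10), stood at 297 TPM in replicate 1 and 299 in replicate 2. Myf6, also called MRF4 (ENSMUSG00000035923, chromosome 10, 107492853 to 107494737), stood at 222 and 245 TPM. Myog was above Myf6 in both pups.

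Myod1 (ENSMUSG00000009471, chromosome 7, 46376474 to 46379099) was at 57.2 TPM in replicate 1 and 56.0 in replicate 2. Myf5 (ENSMUSG00000000435, chromosome 10, 107482908 to 107486134) was at 38.7 and 49.6 TPM and so was the regulatory factor that differed most between the pups. The gap between the early and the late factors was much wider than either spread. Myog exceeded Myod1 by 2.39 ± 0.03 on the log2 scale with 0.1 TPM added (SD, n = 2), a 5.25-fold difference in level, and Myf5 by 2.76 ± 0.25.

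Of the summed TPM of the 4 factors, 47.2% ± 1.64 was Myog, 36.9% ± 1.17 was Myf6, 8.97% ± 0.482 was Myod1 and 6.97% ± 0.95 was Myf5 (SD, n = 2). Myod1 took a larger share than Myf5 in both pups, at 9.31% and 8.63% against 6.29% and 7.64%. In level, however, Myod1 exceeded Myf5 by a log2 ratio of 0.56 in replicate 1 and 0.18 in replicate 2, which is not beyond 3 times the SD.

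**Figure D1:**
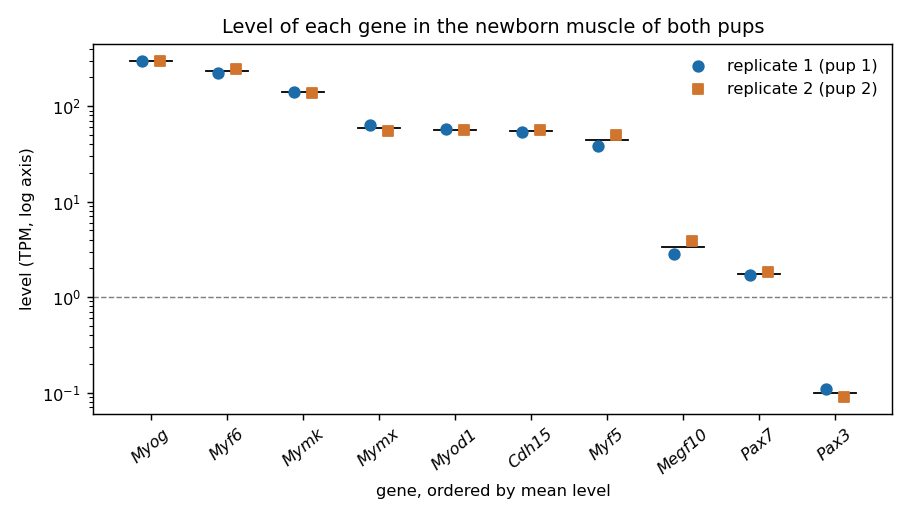
Level of each of the 10 genes in TPM (log axis) in replicate 1 (circles) and replicate 2 (squares), with the mean as a bar and a dashed line at 1 TPM. Myog, Myf6 and Mymk lie above 100 TPM in both pups, 4 genes lie between 38.7 and 62.7 TPM, and Pax3 alone lies under the line.

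The progenitor factors were far less abundant. Pax7 (ENSMUSG00000028736, chromosome 4, 139737062 to 139833528) was at 1.69 TPM in replicate 1, from 249 counts, and at 1.81 TPM in replicate 2, from 281 counts. Pax3 (ENSMUSG00000004872, chromosome 1, 78101267 to 78197134) had 12 and 9 counts, or 0.11 and 0.09 TPM. Pax7 was therefore low but well counted, while Pax3 rested on a handful of reads.

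In level, Myod1 exceeded Pax7 by 4.94 ± 0.09 on the log2 scale and Myf5 exceeded it by 4.57 ± 0.19. These 2 commitment factors were thus 30.7-fold and 23.7-fold above Pax7. The whole muscle was sequenced, so fewer cells of a type and less RNA per cell cannot be told apart.

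Both genes of the fusion proteins were expressed. Mymk (ENSMUSG00000009214, chromosome 2, 27061636 to 27072179), which encodes the membrane protein myomaker needed on fusing myoblasts, was at 141 and 138 TPM in replicates 1 and 2. Mymx (ENSMUSG00000079471, chromosome 17, 45600971 to 45602102), which encodes the micropeptide myomixer that acts with myomaker, was at 62.7 and 55.6 TPM. Mymk was the higher in both pups, by 1.24 ± 0.10 on the log2 scale, or 2.37-fold. The TPM of Mymx depends on its annotated transcript lengths, which differ between releases of the annotation, and the SD does not cover that.

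The surface genes differed widely in level. Cdh15 (ENSMUSG00000031962, chromosome 8, 122847966 to 122867397) encodes M-cadherin, an adhesion molecule of myoblasts and of the contact between satellite cell and fibre, and was at 54.2 and 55.9 TPM. Megf10 (ENSMUSG00000024593, chromosome 18, 57133090 to 57297467) encodes a receptor with EGF-like repeats that acts in satellite cells, and was at 2.80 and 3.85 TPM from 620 and 807 counts. Cdh15 was close to Myod1 in both pups, whereas Megf10 stood nearer to Pax7.

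Ordered by mean level, the genes ran Myog (298 ± 1.12 TPM), Myf6 (233 ± 16.4), Mymk (140 ± 2.06), Mymx (59.1 ± 5.04), Myod1 (56.6 ± 0.863), Cdh15 (55.0 ± 1.22), Myf5 (44.1 ± 7.7), Megf10 (3.33 ± 0.742), Pax7 (1.75 ± 0.0849) and Pax3 (0.1 ± 0.0141; SD, n = 2 for each). Of the 9 neighbouring pairs in this order, 6 kept their direction in both pups and lay apart by more than 3 times the SD of their log2 ratio. The other 3 pairs, Mymx and Myod1, Myod1 and Cdh15, and Cdh15 and Myf5, did not differ beyond that spread. Their order could not be told from these samples. An SD from 2 samples is itself poorly known, so the rule is only a weak guide for the other 6 pairs as well. Over all 45 pairs, 39 lay apart by the same rule, and the remaining 6 all fell among Mymx, Myod1, Cdh15 and Myf5.

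A mean of at least 1 TPM was reached by 9 of the 10 genes, all but Pax3, against 58.2% of 21474 protein-coding genes. Among the 12495 protein-coding genes at or above that level, Myog lay at the 96.7 percentile, Mymk at 93.3 and Myod1 at 84.6. Megf10 lay at the 18.8 percentile and Pax7 at 7.71.

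The counts of these genes carried little error from reads of other genes. The deposited posterior SD of the gene count was 0 in both pups for all 10, and the counts were whole numbers. An annotated span of Gm20388, a protein-coding model on the same strand, covers Cdh15, but it was listed at 0 counts in both samples. The authors' deposited interval of TPM belongs to their posterior mean and not to the TPM itself, and 2 of the 20 TPM values lay outside it. Both were those of Myog, 297.05 TPM above an interval of 286.3 to 296.5 in replicate 1 and 298.63 TPM above one of 287.5 to 298.1 in replicate 2. For Pax7 the intervals were 1.43 to 1.96 and 1.58 to 2.06.

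The pups were compared to see how far each gene repeated. Each pup gave 1 library, so the difference between them has no replicate check and no test was run. Counts were scaled between the libraries by TMM, and a gene with at least 10 mean counts was called past 2-fold. None of the 10 genes passed this limit, against 6.29% of the 17004 genes measured. The median absolute log2 ratio was 0.17 for the 10 genes and 0.19 for all genes measured.

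Within that range, Megf10 and Myf5 stood out as the genes with the largest ratios. Megf10 had 620 counts in replicate 1 and 807 in replicate 2, and was 1.52-fold higher in replicate 2 (95% counting interval 1.37 to 1.69, exact Clopper-Pearson). Myf5 had 2295 and 2782 counts and was 1.42-fold higher in replicate 2 (1.34 to 1.498). Pax7 was 1.32-fold higher (1.11 to 1.57). On the log2 scale this was 0.40, but 0.30 with total counts and 0.09 with TPM. The length by which TPM corrects Pax7 was 4933.5 nt in replicate 1 and 5494 nt in replicate 2. A ratio at least as large as that of Megf10 was seen in 13.8% of all genes measured, and one at least as large as that of Myf5 in 17.8%.

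The other genes lay closer to equality. Myf6 was 1.22-fold higher in replicate 2 (1.18 to 1.26), Cdh15 1.14-fold (1.09 to 1.19) and Myog 1.11-fold (1.08 to 1.14). Mymk (1.04 to 1.12) and Myod1 (1.03 to 1.14) were each 1.08-fold higher in replicate 2 in scaled counts, yet lower there in TPM. Mymx, at 1338 and 1119 counts, and Pax3 had intervals that held 1. For Pax3 the interval ran from 0.326 to 2.27, so a difference of 2-fold was not detectable at this depth.

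The counting interval left out equality for 8 of the 10 genes, and for 45.9% of all genes measured. Intervals treat each read as independent, cover counting error only, and narrow with the count. Reads amplified by PCR with no molecular tag can repeat a molecule, so even the counting error may be larger than shown. The scaling also bears on small ratios. With total counts the median of all genes moved by -0.10 on the log2 scale and with TPM by -0.15, and Megf10 then stood at 0.50 and 0.45 against 0.60 with TMM. Past 1.5-fold there was 1 gene, Megf10, with TMM (against 14.3% of all genes) and none with total counts or TPM.

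**Figure D2:**
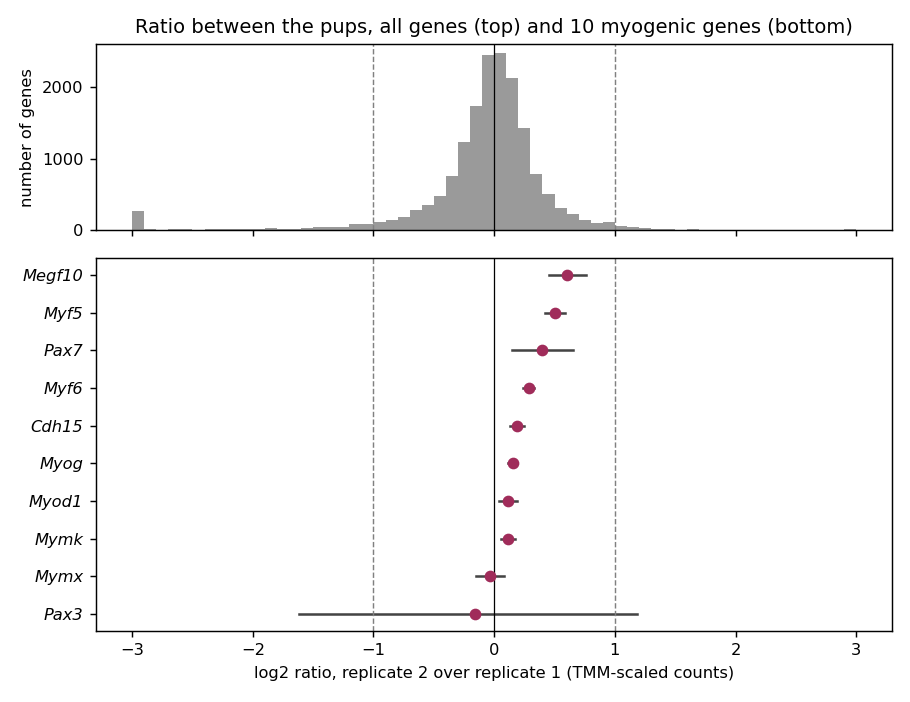
Log2 ratio of replicate 2 over replicate 1 from TMM-scaled counts, as a histogram of 17004 genes (top, ratios beyond 3 drawn at the edge) and for each of the 10 genes with its 95% counting interval (bottom). Dashed lines mark 2-fold; all 10 points lie between them, Megf10 and Myf5 lie farthest to the right, and the interval of Pax3 crosses both lines.

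Marker genes of other cell types differed between the samples, and these lists were chosen with such differences already known. The 6 skeletal muscle fibre markers, led by Acta1, summed to 97673 and 108408 TPM in replicates 1 and 2, and all 6 had ratios above 0, with a median log2 ratio of 0.30. The 10 myogenic genes had a median of 0.17, and all genes one of -0.00155. All 6 epidermis markers, led by Krt1, were past 2-fold higher in replicate 1, where they summed to 430 TPM against 4.22. The same held for all 5 white adipocyte markers, led by Cfd (2392 against 102 TPM), and all 5 cartilage markers, led by Col2a1 (37.1 against 0.8 TPM), where Snorc was at 0 counts in replicate 2. Past 2-fold and higher in replicate 1 were 4.88% of all genes, against 1.42% higher in replicate 2. Replicate 2 was thus the higher in 22.5% of the genes past 2-fold with TMM, and in 11.9% with TPM. The part of these tissues in the ratios of the 10 genes was not tested.

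Other markers differed less in sum. Fibroblast markers, led by Col3a1, summed to 4658 and 3328 TPM, leukocyte markers, led by Cma1, to 1092 and 603 TPM, and endothelial markers, led by Egfl7, to 203 and 184 TPM. Heart markers, led by Tnni3, summed to 6.77 and 6.7 TPM. Of these, Myl7 was past 2-fold higher in replicate 1, from 19 and 6 counts. Nppa was past 2-fold higher in replicate 2, from 4.27 and 25.1 counts. Both rest on few reads, and 6.29% of all genes were past 2-fold in either direction. The 6 melanocyte markers, led by Mitf, summed to 5.08 and 4.21 TPM. Of the 6, 2 averaged 1 TPM or more, against 58.2% of protein-coding genes. Brown adipocyte precursors can carry Myf5. Of those markers Cidea led, and 3 of 5 reached 1 TPM, near the 58.2% of protein-coding genes. The sums were 37.1 and 36.4 TPM, and Ucp1 had 6 and 0 counts. None of the markers in the lists given here was at 0 counts in both samples, and Mlana of melanocytes and Nkx2-5 of heart had 0 and 1 counts. The part of other cell types in the levels of Pax3 and Myf5 was not tested.

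The E proteins and the Id proteins each summed to less RNA than the regulatory factors. These are sums over all cells of the muscle, so they do not give the balance within muscle cells. Among 23 partner and antagonist genes, 22 reached 1 TPM on average, against 58.2% of protein-coding genes. The E proteins Tcf3, Tcf4 and Tcf12, with which the factors pair on DNA, summed to 129 ± 5.18 TPM, and the 4 regulatory factors to 632 ± 24.4 TPM (SD, n = 2). The log2 ratio of E proteins to factors was -2.21 in replicate 1 and -2.37 in replicate 2. Tcf4 led the E proteins at 76.1 and 69.9 TPM.

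The inhibitors Id1, Id2, Id3 and Id4 summed to 187 TPM in replicate 1 and 148 in replicate 2, and so lay above the E proteins in both pups, by 0.37 ± 0.18 on the log2 scale (SD, n = 2), which is not beyond 3 times the SD. They were led by Id3 at 86.8 and 74.7 TPM and Id2 at 55.6 and 44 TPM. Among the 22 genes with enough counts, Twist2, a helix-loop-helix factor of mesenchymal cells, was the 1 past 2-fold, against 6.29% of all genes measured. It had 188 and 79.4 counts, and its log2 ratio of -1.01 put it higher in replicate 1. Its relative Twist1 had 352 and 158 counts and a log2 ratio of -0.92, which did not pass with TMM or DESeq2 scaling. With total counts (-1.02) and TPM (-1.06) it passed. The list's median log2 ratio was -0.07, against -0.00155 for all genes.

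Genes tied to satellite cells were detected almost throughout, although several are also made by other cells. Of 23 genes, 22 averaged 1 TPM or more, against 58.2% of protein-coding genes. The median over all 23 was 13.2 TPM. For protein-coding genes it was 11.8 TPM, taken only over those at or above 1 TPM, so the medians are not filtered alike. Cav1, which vessels and fat also make, led at 409 and 265 TPM. The integrin Itgb1 followed at 219 and 203 TPM and the adhesion molecule Ncam1 at 151 and 174 TPM. Calcr, the calcitonin receptor of quiescent satellite cells, was at 1.12 and 2.04 TPM, close to Pax7 in level. It was the 1 gene of the 23 past 2-fold, against 6.29% of all genes measured. Calcr had 110 and 192 counts and a log2 ratio of 1.01. Its 95% counting interval was 1.61-fold to 2.60-fold higher in replicate 2. It stood at 0.91 with total counts and 0.81 with TPM, so of the 4 scalings run for it only TMM and DESeq2 put it past 2-fold. The list's median log2 ratio was 0.03, and -0.07 with total counts.

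The wider fusion machinery was present at moderate levels. Of 34 genes for adhesion, actin remodelling and membrane handling, 28 averaged 1 TPM or more, against 58.2% of protein-coding genes. The median was 9.31 TPM. The tetraspanin Cd81 led at 417 and 399 TPM, followed by the small GTPases Cdc42 at 381 and 352 TPM and Rac1 at 166 and 139 TPM, all of which act in most cell types. Mymk was close to Rac1 in level. Nphs1, which encodes nephrin, had 0 counts in both samples, which allows up to 3 counts in each. None of the 32 genes with enough counts was past 2-fold, against 6.29% of all genes measured. The largest ratios with at least 100 mean counts were -0.37 for Arf6 and -0.36 for Bin3 on the log2 scale. The list's median log2 ratio was -0.07.

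Genes known as targets of the regulatory factors were abundant. All 20 averaged 1 TPM or more, against 58.2% of protein-coding genes, and the median was 528 TPM. The highest were skeletal actin, Acta1, at 49664 and 57562 TPM, and the myosin light chains Myl1 and Mylpf. Values of Myl1 were 22354 and 24537 TPM and those of Mylpf 12852 and 13262 TPM. None was past 2-fold, against 6.29% of all genes measured. The largest ratios were 0.36 for both Chrna1, the acetylcholine receptor alpha subunit, and Acta1, both higher in replicate 2. The list's median log2 ratio was 0.22, near that of the fibre markers, which share 4 genes with it.

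**Figure D3:**
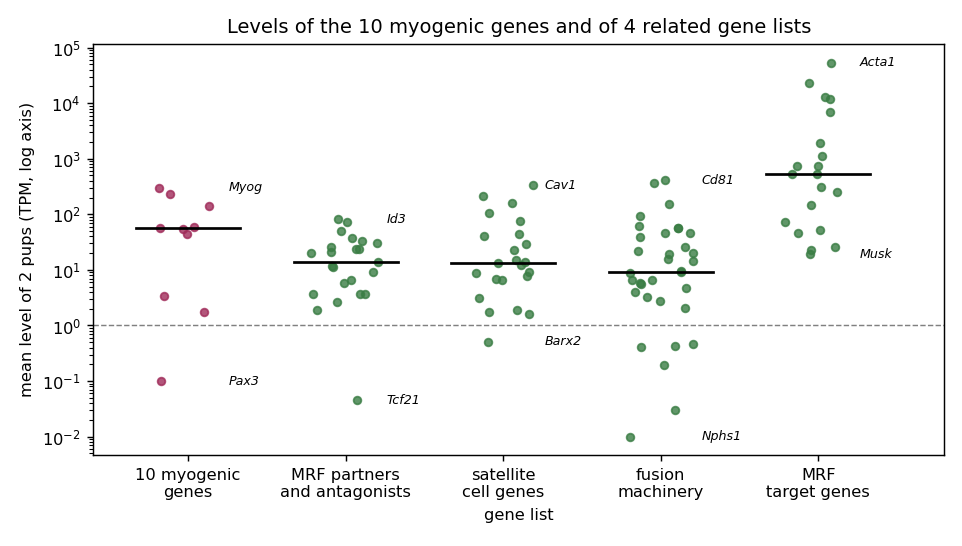
Mean level over the 2 pups in TPM (log axis) of the 10 genes and of each gene in 4 related lists, with the list median as a bar, the highest and lowest gene named, and a dashed line at 1 TPM. Nphs1, at 0, is drawn at 0.01 TPM; MRF stands for the myogenic regulatory factors, whose targets have the highest median, 528 TPM.

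Most genes that flank the myogenic genes had lower levels. Myf5 and Myf6 follow each other on the minus strand of chromosome 10 with 6718 bp between them. The genes on either side of this pair were Lin7a at 0.85 and 1.00 TPM and Ptprq at 0.04 TPM in both pups. The 2 regulatory factors thus stood above both flanking genes in each pup.

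Myog has Ppfia4 at a distance of 4234 bp on the opposite strand, at 12.5 and 14.2 TPM, and Adora1 on the other side at 1.29 and 0.90 TPM. Myod1 lies between Otog, at 0.17 and 0.18 TPM, and Kcnc1, at 8.57 and 6.48 TPM. Mymk lies between Slc2a6, at 0.48 and 0.43 TPM, and Adamtsl2, at 1.91 and 2.11 TPM. Each of Myog, Myod1 and Mymk was above both neighbours in each pup.

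Mymx was an exception. Its neighbour Slc29a1, a nucleoside transporter gene 1364 bp away on the same strand, was at 126 and 107 TPM, above Mymx in both pups, while Capn11 on the other side was at 0.05 and 0.01 TPM. Megf10 was below both of its neighbours, C330018D20Rik at 7.93 and 6.45 TPM and Prrc1 at 23.6 and 18.9 TPM. Pax3 was below Epha4, at 3 and 3.41 TPM, and near Sgpp2, at 0.05 and 0.13 TPM. Pax7 was above both of its neighbours, Tas1r2 with 0 counts in both samples and Klhdc7a at 0.26 and 0.07 TPM. Cdh15 stood above Acsf3, at 12.1 and 10.98 TPM, and Ankrd11, at 12.9 and 13.9 TPM.

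Transcript rows divide each gene among its annotated forms. Myod1, Myf5, Myog, Myf6 and Cdh15 had 1 transcript each. The remaining 5 genes had 2 or 3. Among them Megf10, Mymk, Mymx and Pax7, which averaged 1 TPM or more, each had the same leading transcript in both pups, against 90.1% of 9523 genes with several transcripts and at least 1 TPM. Pax3 also kept its leading form, but lies below that limit. The leading form of Megf10, Megf10-201, held 100% of the TPM in both pups, and Mymk-201 held 100% in replicate 1 and 99.3% in replicate 2. Mymk-202 starts at an inner first exon and had 0 and 30 counts, with a posterior SD of 16.1 and 27.8 counts.

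Mymx was divided among 3 transcripts, which differ in the GENCODE M21 annotation in their first exon and in where the last exon ends. Mymx-203 held 66.7% of the TPM in replicate 1 and 56.7% in replicate 2, Mymx-201 24.1% and 38.9%, and Mymx-202 9.25% and 4.38%. In counts, Mymx-201 had 321 in replicate 1 and 435 in replicate 2, with posterior SDs of 57.1 and 67.3, and Mymx-203 had 886 and 632, with posterior SDs of 59.2 and 66.7. These SDs are the deposited model's own uncertainty in dividing the reads. The lengths of all 3 models differed between GENCODE M4 of the files and M21. In M4 and M21, Mymx-203 was 808 and 804 nt, Mymx-201 811 and 442 nt, and Mymx-202 852 and 616 nt. The exon differences given above come from M21 and may not hold for the models that divided the reads.

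Pax7 had 2 coding transcripts of 9 exons. Pax7-201 held 80.1% of the TPM in replicate 1 and 93.7% in replicate 2, and Pax7-202 19.9% and 6.32%. By counts the share of Pax7-201 was higher, 93.4% and 98.1%, because the model of Pax7-202 is short at 1725 nt against 5854 nt. The number of reads behind Pax7-202 was 16.3 and 5.26, with posterior SDs of 4.31 and 2.88. The models differ at an internal exon that is 6 nt longer in Pax7-202 (chromosome 4, 139828576 to 139828710, against an end at 139828704), and in the length of the first and last exons.

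Pax3 had too few reads for its forms to be told apart. All 12 counts of replicate 1 were given to Pax3-202, and the 9 of replicate 2 were divided into 5.55 for Pax3-202 and 3.45 for Pax3-201. Pax3-201 splices out a last intron that Pax3-202 keeps in its final exon. By posterior means Pax3-202 held 63.8% in replicate 1 and 47.1% in replicate 2. Pax3-203, a form with no coding part, had 0 counts in both.

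**Figure D4:**
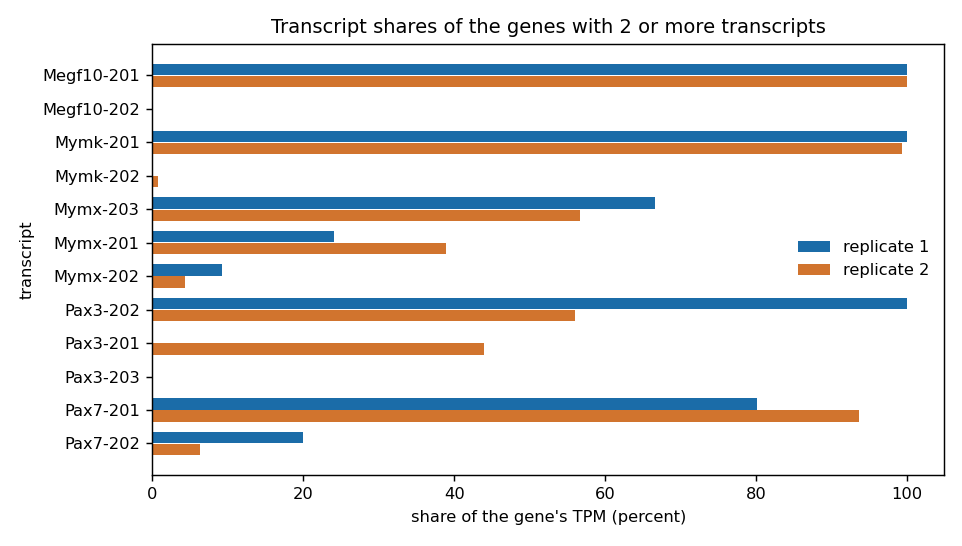
Share of the gene's TPM in each transcript (percent) for the 5 genes with 2 or more transcripts, with a bar for each replicate. Megf10-201 and Mymk-201 hold nearly all of their genes, Mymx-201 holds 24.1% and 38.9%, Pax7-202 holds 19.9% and 6.32% from 16.3 and 5.26 counts, and the Pax3 bars rest on 12 and 9 counts.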

How the data were processed

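Total RNA longer than 200 nt was sequenced from 2 samples, with 10 ng of RNA per library, per the labels. Tables were made with mm10 and GENCODE M4 from alignments to the transcriptome, per the deposited text files. Which aligner and quantifier made them is not given in the sources used here. The authors deposited expected counts and their posterior means, TPM, the percent of each gene's TPM held by each transcript, and, treated as a score here, the posterior SD of counts and the bounds of a TPM interval, per the file headers. Symbols and positions came from GENCODE M21, also on mm10, by unversioned ID for 42462 of 43346 gene IDs. Of the 17 transcript models, 11 had the same length in both releases.

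Expected counts, rounded, were scaled by TMM (edgeR 4.0.16 in R 4.3.3), and log2 CPM used a prior count of 2. With 1 group of 2 samples no quasi-likelihood test was run. Rows that are not genes, with 0.00109% and 0.0012% of the counts, were left out. Counts of the 2 samples differed far beyond sampling noise (chi-square per degree of freedom 63.05, 17004 genes). The scaling and the 2-fold rule were checked on simulated data. Past 2-fold there were 100 of 100 genes set at 4-fold, 4 of 100 set at 1.5-fold and 0.762% of 16789 set at equality. The genes set at 4-fold and 1.5-fold all had at least 100 mean counts. The spread was a fixed setting, not estimated from these samples. Detection of changes in genes with fewer counts, such as Pax3, was not tested. The scaling was not tested with as many genes past 2-fold, mostly higher in replicate 1, as in these samples. The floor for 0 counts was 3 counts, or 7.42e-06% and 8.08e-06% of the counts of replicates 1 and 2.

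The genes, lists and limits were chosen with earlier results of these data known. Named are the 10 genes, the 3 highest and, from 100 mean counts, the 2 most different genes of each related list, the highest marker of each cell type and markers at 0, overlapping or neighbouring genes, and transcripts with at least 10% of a gene. Id1, Id4, Tcf3, Tcf12, minor transcripts, Snorc, Ucp1, Mlana, Nkx2-5, Myl7 and Nppa were added after their values were seen. The result of 1 marker list is not reported here. Alternatives covered scaling with DESeq2 1.42.0, total counts and TPM, posterior means, count limits, pseudocounts, fold limits and each replicate left out. Software was Python 3.11.15 with scipy 1.17.1, pandas 2.3.3, numpy 2.4.6 and matplotlib 3.10.9.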

Additional observations from a re-analysis of the deposited data

How the results depend on the processing

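The 4 main counts were recomputed under 17 settings. The count of genes at or above 1 TPM was 9, and 8 with a limit of 2 TPM, where Pax7 drops out; leaving out either replicate gave 9. The count past 2-fold between the pups stayed at 0 under 6 settings, among them DESeq2 size factors, total counts, TPM and no count filter. It was 1 (Megf10) at 1.5-fold, a lower limit. Changes of the count limit could not alter the 0, since all 10 genes already met it and none was past 2-fold. Neighbours apart in level numbered 6, the same pairs, with pseudocounts of 0.01 and 1 TPM and with posterior means. The order was also the same with posterior means. A pseudocount could not alter it, since the genes were ordered without one. By TPM, counts and posterior means alike, 5 genes had 1 leading form in both pups, Pax3 on 12 and 9 counts. Posterior means moved the levels of 9 genes by -1.94% to 0.286% and put Pax3 at 0.13 TPM. Myod1 and Mymk changed the sign of their ratio with TPM (-0.03 each, against 0.11 with TMM), and 6 of the 10 genes were then above 0 against 8. Of all genes past 2-fold, 22.5% were higher in replicate 2 with TMM and 11.9% with TPM. The median of the satellite cell list went from 0.03 to -0.07 with total counts and -0.11 with TPM, while that of all genes moved by -0.10 and -0.15. The ratios of Calcr, Twist1 and Twist2, the TPM ratios of single genes and the list alternatives were added after the data were seen. No paired analysis was possible because the series has 1 group. With 1 library per pup, ratios have no replicate error, and 12 and 9 counts limit any statement on Pax3.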

Other observations

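The satellite cell list of 23 genes had 13 ratios above 0 and 10 below, with a median of 0.03. Its receptors went both ways, and those named here were picked after their values were seen. In scaled counts the log2 ratio of replicate 2 over replicate 1 was 0.40 for the FGF receptor Fgfr4, 0.40 for the chemokine receptor Cxcr4, 0.36 for the HGF receptor Met, and -0.44 for the FGF receptor Fgfr1. Cxcr4 rests on 80 and 91 counts, and its 95% counting interval of 0.974-fold to 1.82-fold holds 1. Expression in TPM was 13.8 and 16.9 for Fgfr4, 1.57 and 1.89 for Cxcr4, 2.68 and 3.59 for Met, and 35.2 and 23.8 for Fgfr1 in replicates 1 and 2.

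Also chosen after their values were seen are the following. The repressor Msc, a helix-loop-helix factor also called MyoR, was at 38.3 and 36.5 TPM, and the progenitor homeobox gene Lbx1 at 9.03 and 8.79 TPM, both far above Pax3. The co-receptors Boc and Cdon, which take part in signalling between myoblasts in contact, were at 6.41 and 6.49 TPM and at 3.93 and 4.19 TPM. The cell cycle inhibitors Cdkn1a and Cdkn1c, which act when myoblasts leave the cycle, were at 510 and 546 TPM and at 1307 and 945 TPM.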
